A study of Oryza sativa with 6 samples.

Results

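The change of the root transcript response to mercury (Hg) between a short-term and a long-term exposure was measured here as a difference of differences. For each rice locus named on the array, the log2 ratio of Hg-treated to control RNA on the 3 long-exposure arrays was set against the same ratio on the 3 short-exposure arrays, so that all 6 arrays of the series entered. Of 29690 loci on the array, 21810 were bright enough to be tested. A positive difference means a higher Hg/control ratio after the long exposure, whether the gene was induced later, repressed less or induced more.

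The roots came from 6-day-old seedlings of Oryza sativa cv. TN-67, a rice cultivar, grown in the same way for both exposures. Short-term Hg roots were treated for 1 and 3 h, and their RNA was pooled. Long-term Hg roots were treated for 24 h, and control roots received water. The labels give the dose as 25 mM and the study's methods as 25 µM Hg, and the files do not settle which. Each of the 3 biological replicates per exposure was hybridised as 1 two-colour array, with Cy5 on the Hg side, Cy3 on the control side and no dye swap. A dye effect that is equal on all arrays therefore enters both ratios alike and drops out of their difference. It stays in the ratios and calls of each exposure on its own. The labels do not say whether the control RNA was the same for both exposures. The study's methods name the source of the array RNA both as root samples and as root tips. Cell types cannot be separated in such RNA: fewer cells of a type and less RNA per cell give the same ratio.

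Mercury binds thiol groups of proteins and displaces other metals from their sites, and the rice root meets it directly in the growth medium. Plants exposed to a toxic metal are known to pass through an early phase, in which calcium signals, kinases, ethylene and jasmonate synthesis and transcription factors are engaged, and a later phase with metal-binding peptides, transport and cell wall change. Metallothioneins are small cysteine-rich proteins that bind metals. Jasmonate is made from membrane lipids, and its JAZ repressors are themselves transcribed in response to the hormone. Plasma membrane intrinsic proteins (PIPs) are the aquaporins that carry water into root cells.

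On the arrays, 28674 to 34927 of 43734 non-control spots were well above background per channel, and 72 to 1185 spots per array carried an outlier mark and were left out. The median Hg/control log2 ratio of the loci lay between -0.13 and -0.05 on every array. Between arrays of the same exposure the median absolute gap of a locus was 0.12 to 0.22, and between arrays of different exposures 0.41 to 0.50. The long-exposure arrays shared 1 slide and the short-exposure arrays spanned 2 other slides, so slide and exposure cannot be told apart. Within the short exposure, arrays on different slides had a median gap of 0.21 to 0.22, against 0.18 for the pair on 1 slide. The root silicon channel OsNIP2;1 (Os02g0745100) was well above background in both channels on all 6 arrays. The chlorophyll a/b binding protein Os03g0592500, a leaf gene, was also well above background in both channels on the 5 arrays where its spot was kept, with normalised log2 signals of 10.96 to 11.50, and its part in the results was not tested.

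A change of at least 2-fold between the exposures was found for 4217 loci, 19.3% of those tested, by limma at an adjusted p under 0.05. Of these, 2007 loci (9.20%) had a higher ratio after long-term exposure and 2210 (10.1%) a lower one. The median difference of all tested loci was 0.04 on the log2 scale, with quartiles of -0.41 and 0.46; the dye normalisation centres each array, so a shift of the whole response would not show in this median. At least 4-fold differences were reached by 451 loci among the higher and by 649 among the lower. The 3 ratios of one exposure did not overlap the 3 of the other for 62.1% of the 21030 loci with values on all 6 arrays (33.1% higher and 29.0% lower at 24 h), so a lack of overlap alone says little here, and the calls used below are those of limma. With background correction and loess normalization redone from the spot signals, 1140 loci were higher and 1718 lower, which changed the higher share of calls from 47.6% to 39.9%.

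**Figure D1:**
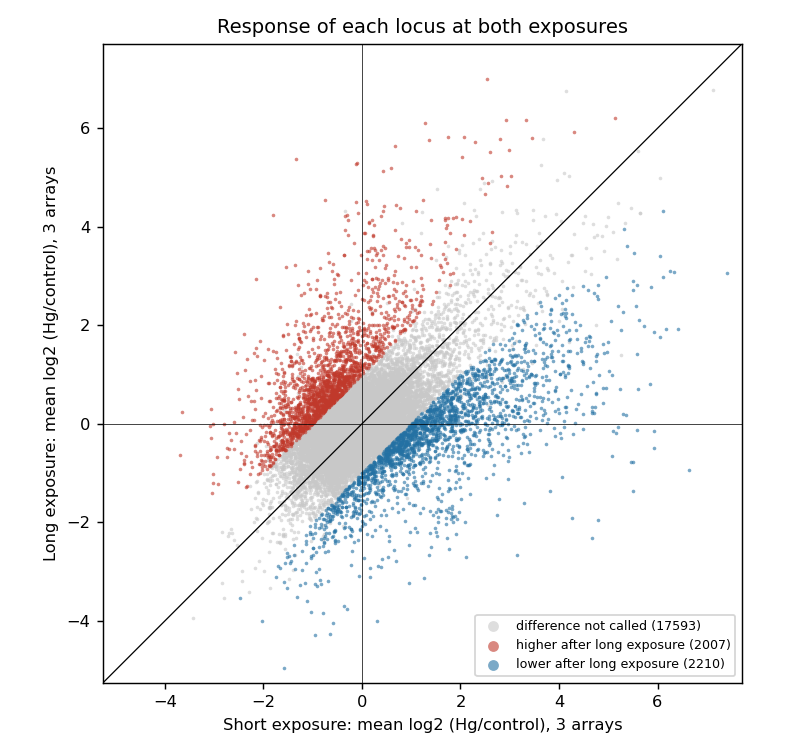
Each point is 1 of the tested loci, with the mean log2 Hg/control ratio of the 3 short-exposure arrays on the x axis and of the 3 long-exposure arrays on the y axis; the diagonal marks equal responses. The 2007 loci called higher (red) lie above and the 2210 called lower (blue) below the diagonal, and the lower ones extend far along the side of short-term induction.

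The called differences were sorted next by what each exposure showed on its own. After short-term exposure 2528 loci (11.6%) were upregulated and 1763 (8.08%) downregulated at least 2-fold, against 1963 (9.0%) and 1315 (6.03%) of the same loci after 24 h. The commonest class was early induction that was no longer called at 24 h, with 1059 of the 2210 lower loci. A further 245 were upregulated at both exposures but less at 24 h, 379 were downregulated at 24 h only, 34 were downregulated at both and more so later, and 408 were called at neither exposure alone. Among the 2007 higher loci, 612 were downregulated early and not called later, 603 were upregulated at 24 h only, 76 were upregulated at both and more so later, 10 were downregulated at both but less so later and 621 were called at neither. In each direction 85 loci turned, being called up at one exposure and down at the other. With no called difference, 646 loci were upregulated at both exposures and 340 were downregulated at both. The lack of a called difference does not show that a response held. A dye effect particular to a gene would also give the same call at both exposures, and its part was not tested.

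**Figure D2:**
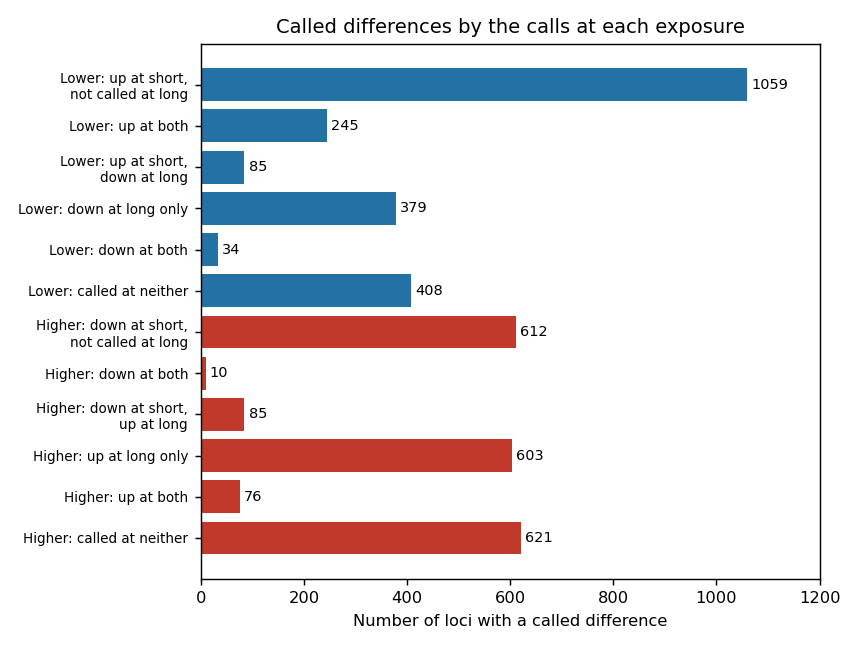
Bars count the loci with a called difference, split by whether each was called up, down or not at all after short-term and after long-term exposure. Loss of early induction (1059 loci) is the largest class, followed by higher loci called at neither exposure (621), loss of early repression (612) and induction at 24 h only (603).

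A ratio can change through the Hg-treated RNA or through the control RNA. After equalising the average signal (mean of both channels) between arrays, the Hg channel moved more than the control channel for 3588 of the 4217 called loci and the control channel moved more for 629. Called higher loci had a median change of 1.47 in the Hg channel and -0.12 in the control channel; for called lower loci the medians were -1.55 and 0.11. The control channel itself changed at least 2-fold between the arrays of the exposures for 609 called loci, and for 2788 of all tested loci. Because each exposure lay on its own slides, a change in 1 channel cannot be told apart from a slide effect, whereas the ratio is formed within an array. Of 190 genes named by rule, 176 moved more in the Hg channel.

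**Figure D3:**
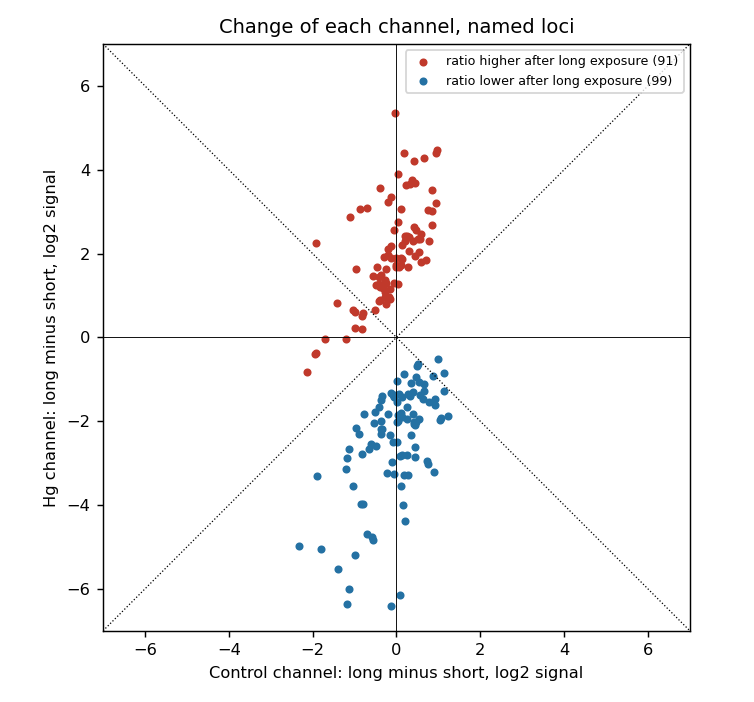
Each point is 1 of the 190 named loci; the x axis gives the change of the control channel and the y axis that of the Hg channel from short-term to long-term exposure, both in log2 signal, and the dotted lines mark equal size. Of the 190 loci 176 lie in the upper and lower sectors, where the Hg channel moved more.

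The largest rise among named genes was that of a type 1 metallothionein-like gene, Os12g0571000. Its log2 Hg/control ratios were 0.24, 0.63 and -1.16 after short-term and 4.09, 6.17 and 5.61 after long-term exposure in replicates 1, 2 and 3. All 3 late arrays lay above all early ones, which its choice by size of difference makes likely. The difference was 5.39 ± 0.65 (adjusted p = 0.00126), where the error is the standard error (SE) of the fit on 3 against 3 arrays. The gene was not called early (mean -0.10) and stood at a mean of 5.29 at 24 h. Its control signal hardly differed between exposures (-0.05).

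Next came Os02g0786900, described as a pathogenesis-related protein 1a, a secreted marker of defence. The ratios were -2.3, -2.33 and -2.55 early and 1.43, 2.00 and 2.03 late, a difference of 4.21 ± 0.18 (adjusted p = 0.000282). This gene was downregulated early and upregulated at 24 h. L-ascorbate oxidase (Os06g0567900), an enzyme of the cell wall space that oxidises ascorbate, had ratios of 0.39, 0.78 and 0.14 early and 4.0, 4.70 and 4.58 late. The difference was 3.99 ± 0.24 (adjusted p = 0.00029), of which -1.11 was a lower control signal.

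A Myb factor annotated after Arabidopsis Myb5, Os01g0975300, differed by 4.17 ± 0.26 (adjusted p = 0.00029), with 2.26 in the Hg channel and -1.91 in the control channel. A pair of genes with a lipoxygenase-type PLAT/LH2 domain, Os10g0361900 and Os10g0361000, differed by 3.95 and 3.49 and were called at 24 h only. So were Os09g0388400 of the Cof family, with a difference of 3.79, and Os02g0689900 of the peptide and nitrate (POT) transporters, with 3.47. The other 4 of the 12 highest had been downregulated early and are described below with the genes that turned.

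The 2 lowest differences among named genes belonged to neighbouring loci of the same description, PGPS/D12, Os03g0830500 and Os03g0830300. Os03g0830500 had ratios of 5.61, 5.01 and 5.90 early and -0.61, -1.30 and -0.40 late. For Os03g0830300 they were 5.77, 4.69 and 5.93 and -1.22, -1.20 and 0.11. Both were strongly induced early and not called at 24 h, with differences of -6.28 ± 0.31 (adjusted p = 0.000282) and -6.23 ± 0.47 (adjusted p = 0.000351). Whether the probes of such related loci read each other's transcripts was not tested, and the same holds for the metallothionein, chitinase and glucose-6-phosphate translocator genes named below.

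Several regulators and enzymes were induced early and then lost that induction. The zinc finger protein Os03g0437200 had ratios of 4.93, 4.58 and 5.19 early and 0.23, 1.02 and 0.93 late, and the difference was -4.17 ± 0.26 (adjusted p = 0.00029). For Os02g0624300, described as MYB1, the early ratios were 4.73, 4.42 and 5.08 and the late ones 0.15, 1.00 and 0.75, a difference of -4.11 ± 0.26 (adjusted p = 0.000293). No early array overlapped a late one for either factor, which their choice by size of difference makes likely. A GDSL lipase (Os06g0156400) differed by -4.21, a nonspecific lipid-transfer protein (Os12g0115100) by -3.98, and the phospholipase D OsPLDα6 (Os06g0604200) by -4.13, and none of these 3 was called at 24 h.

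In 2 of the 12 lowest the induction was weaker but still called at 24 h. The receptor kinase-like gene Os08g0374600, listed with the receptor-like cytoplasmic kinases, had the highest early ratio of the named genes, with ratios of 5.82, 5.57 and 7.15. Its late ratios were 1.36, 0.81 and 3.57, which spread widely, and the difference was -4.27 ± 0.77 (adjusted p = 0.00513). A plastocyanin-like gene, Os08g0482600, had means of 5.57 after short-term and 1.42 after long-term exposure.

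**Figure D4:**
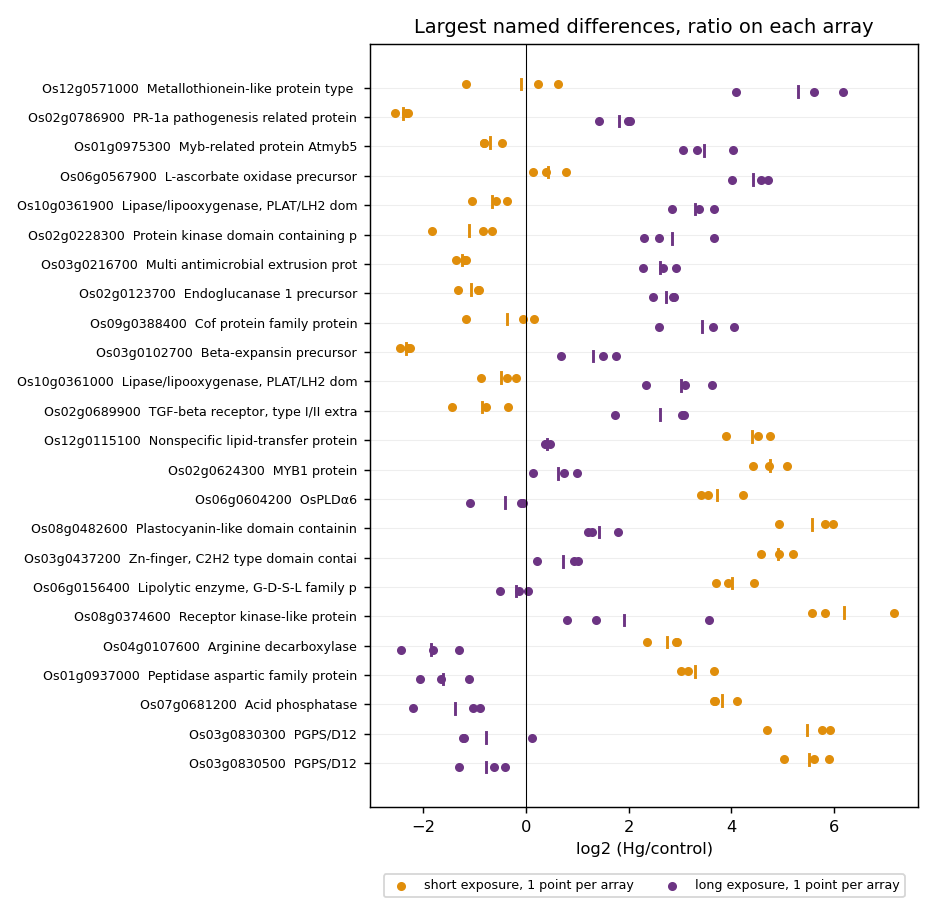
Points are the log2 Hg/control ratios of single arrays for the 12 highest and the 12 lowest named differences, short exposure in orange and long exposure in purple, with a tick at each mean of 3 arrays. The genes were chosen for their large differences, so the lack of overlap in all 24 is no further support. The differences run from 5.39 for the metallothionein-like Os12g0571000 at the top to -6.28 for Os03g0830500 at the bottom.

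Loci called in opposite directions at the 2 exposures numbered 170 (0.779% of those tested). The number was 36 after normexp and loess and 17 by the methods' t-test. By size of difference the first 8 that were described and well above background on all arrays were 3 that turned from up to down and 5 that turned from down to up. The acid phosphatase Os07g0681200 had early ratios of 3.66, 3.69 and 4.11 and late ratios of -0.89, -2.19 and -1.03. The aspartic peptidase Os01g0937000 went from 3.16, 3.02 and 3.67 to -1.65, -2.05 and -1.1. Arginine decarboxylase (Os04g0107600), a first enzyme of polyamine synthesis, went from 2.91, 2.35 and 2.95 to -1.81, -2.43 and -1.29. These 3 genes thus stood at least 4-fold above control early and below control at 24 h on every array, with differences of -5.19, -4.89 and -4.58.

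From down to up, beside the PR-1a gene, turned a beta-expansin, an endoglucanase, a MATE transporter and a leucine-rich repeat kinase. The beta-expansin Os03g0102700, of a family that loosens cell walls, had ratios of -2.44, -2.29 and -2.25 early and 0.68, 1.5 and 1.76 late, a difference of 3.64 ± 0.27 (adjusted p = 0.000351). Endoglucanase 1 (Os02g0123700), which cuts beta-1,4-glucan, had -0.92, -0.93 and -1.32 early and 2.47, 2.88 and 2.86 late, a difference of 3.80 ± 0.17 (adjusted p = 0.000282). The MATE-type transporter Os03g0216700 differed by 3.86 ± 0.17 (adjusted p = 0.000282) and the kinase Os02g0228300 by 3.95 ± 0.44 (adjusted p = 0.000961). For all 4 the sign of the ratio was the same on the 3 arrays of an exposure, which their choice by opposite calls makes likely.

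Gene families were described by 52 lists taken from the study's family tables, counting tested members. The share of all loci called (19.3%, median difference 0.04) is the background for each count. The called share was above this background in 43 of the 52 lists, so exceeding it does not set a family apart. Shares close to it, from 18.2% to 20.8%, were those of mitochondrial carriers, auxin signaling, arabinogalactan proteins, the MAP kinase cascade, protein phosphatases, and zinc-iron permeases and Nramp transporters. Jasmonate signaling stood at 1 higher and 7 lower of 10 tested, with a median difference of -1.78, and jasmonate synthesis at 1 higher and 7 lower of 18 tested, with a median of -0.65. Early in the exposure, 7 of the 10 signaling and 10 of the 18 synthesis genes were upregulated, against 1 and 4 at 24 h. The JAZ repressor OsJAZ6 (Os03g0180800) had ratios of 2.71, 2.79 and 4.57 early and -0.41, -0.31 and -0.49 late, a difference of -3.76 ± 0.49 (adjusted p = 0.00153). For OsJAZ1 (Os03g0180900) the early ratios were 3.82, 3.23 and 4.36 and the late ones 0.91, 0.80 and 0.93, a difference of -2.92 ± 0.27 (adjusted p = 0.000588). These genes were induced on each early array and stood within 2-fold of control on each late array. OsJAZ2 (Os10g0392400) differed by -3.19 and OsJAZ5 (Os03g0181100) by -2.12.

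In jasmonate synthesis, enzymes of 2 successive steps fell. Allene oxide synthase OsAOS2 (Os03g0767000), which opens the branch from lipid hydroperoxides, had early ratios of 2.01, 1.78 and 3.04 and late ratios of -0.05, -0.32 and -0.30, a difference of -2.5 ± 0.32 (adjusted p = 0.00153). Allene oxide cyclase OsAOC (Os03g0438100), the next enzyme, differed by -1.53 ± 0.15 (adjusted p = 0.000612). OsOPCL1 (Os03g0132000), which activates the precursor for its final shortening, differed by -1.52, of which 1.00 was a higher control signal. The lipase gene OsDAD1;3 (Os02g0653900) differed by -1.15 ± 0.26 (adjusted p = 0.0122) and was not called without short replicate 3 or by the methods' t-test. By that test 4 and not 7 synthesis genes were lower, and without short replicate 1 there were 2 higher ones.

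Ethylene synthesis counted 1 higher and 5 lower of 10 tested, with a median of -1.17, while ethylene signaling counted 0 higher and 1 lower of 14 tested, with a median of 0.03. OsACS2 (Os04g0578000), an ACC synthase and so of the step that limits ethylene formation, had ratios of 3.29, 3.32 and 3.30 early and 0.10, -0.08 and 0.82 late. It was the tightest of the early inductions named here (SD 0.02, n = 3), and its difference was -3.02 ± 0.23 (adjusted p = 0.00036). The ACC oxidases, which form ethylene from ACC, did not move together. OsACO4 (Os11g0186900) differed by -2.18 ± 0.21 (adjusted p = 0.000606) and OsACO3 (Os09g0451000) by 1.66 ± 0.16 (adjusted p = 0.000605). In OsACO3 the Hg channel changed by -0.04 and the control channel by -1.69. OsACS5 (Os01g0192900) was below control at both exposures and further below at 24 h (-1.04 after short-term and -2.67 after long-term exposure). The call for its difference was lost after normexp and loess. The only called signaling gene was OsEIN3;3 (Os07g0685700), of the EIN3 family of transcription factors, with means of 1.24 after short-term and -0.07 after long-term exposure; leaving out short replicate 2, long replicate 2 or long replicate 3 gave 2 lower genes in this list, and leaving out short replicate 3 gave 1 higher gene.

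Abscisic acid signaling counted 3 higher and 6 lower of 29 tested. Lipid-cleaving phospholipases D, OsPLDα6 and OsPLDα7 are on this list. OsPLDα7 (Os06g0604300) had means of 2.99 after short-term and -0.67 after long-term exposure. The protein phosphatase OsPP2C5 (Os05g0457200), of a class that restrains abscisic acid signaling, turned, with ratios of 1.01, 0.66 and 1.42 early and -0.94, -1.91 and -2.11 late and a difference of -2.68 ± 0.34 (adjusted p = 0.00146). The factor OsbZIP46 (Os06g0211200), which acts in abscisic acid responses of rice, moved the other way by 2.01 ± 0.21 (adjusted p = 0.000752). OsAAO3 (Os07g0281700), listed for abscisic acid and auxin synthesis, was downregulated at both exposures and more at 24 h (-1.58 after short-term and -3.22 after long-term exposure). After normexp and loess the call for its difference was lost.

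Cytokinin signaling counted 2 higher and 5 lower of 24 tested. There were 3 lower genes without short replicate 3 or long replicate 3, and 1 higher and 2 lower after normexp and loess. Type-A response regulators, which are induced by cytokinin and dampen its signaling, made up the named lower genes. OsRR6 (Os04g0673300) had ratios of 1.07, 0.41 and 1.23 early and -1.45, -1.17 and -1.65 late, a difference of -2.33 ± 0.24 (adjusted p = 0.000766). OsRR3 (Os02g0830200) and OsRR1 (Os04g0442300) had late means of -2.65 and -1.90 and differed by -1.28 and -1.03. The call for OsRR1 was lost after normexp and loess, and without short replicate 3, long replicate 2 or long replicate 3. Among 24 tested members, 7 were downregulated at 24 h and 1 early. Cytokinin dehydrogenases, which break cytokinin down, went both ways: OsCKX1 (Os01g0187600) differed by -1.19 and OsCKX11 (Os08g0460600) by 1.54, the latter with a change of -1.91 in the control channel.

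Auxin signaling, at 6 higher and 5 lower of 57 tested, had a called share of 19.3%, the same as all loci, and its counts were unstable: without short replicate 2 there were 11 higher genes, without long replicate 1 there were 11 lower, and without short replicate 3, long replicate 2 or long replicate 3 there were 3 lower. The Aux/IAA repressor OsIAA16 (Os05g0186900) had ratios of -0.30, -0.24 and 0.30 early and 1.74, 2.36 and 2.09 late, a difference of 2.14 ± 0.22 (adjusted p = 0.000755). OsIAA20 (Os06g0166500) went the other way, from 1.27, 1.32 and 1.31 to 0.08, -0.97 and -1.24. The auxin response factor OsARF15 (Os05g0563400) rose from below control, with means of -1.13 after short-term and 0.72 after long-term exposure. In brassinosteroid synthesis and signaling 4 of 29 tested genes were called, all but 1 of them higher; OsDWARF4 (Os03g0227700), a hydroxylase of that synthesis, differed by 1.29 ± 0.12 (adjusted p = 0.000612).

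Metallothioneins formed the family with the largest median difference, 2.45, at 6 higher and 0 lower of 11 tested, which is all of the listed members. Only 1 was upregulated early and 6 at 24 h. OsMT1-4a (Os12g0570700) was the early one, with ratios of 2.18, 2.19 and 1.74 early and 4.59, 6.24 and 5.42 late and a difference of 3.38 ± 0.40 (adjusted p = 0.00117). OsMT1-4b (Os12g0568500) had ratios of -0.78, -0.80 and -0.95 and 2.01, 2.83 and 2.94, a difference of 3.44 ± 0.25 (adjusted p = 0.000326). Late ratios lay above early ones on all arrays for both, which were named for the size of their difference. OsMT1-2b (Os01g0974200) and OsMT1-4c (Os12g0568200) differed by 2.73 ± 0.44 (adjusted p = 0.00344) and 2.67 ± 0.32 (adjusted p = 0.00123). Apart from OsMT1-2b, the named metallothioneins have locus numbers close to each other and to Os12g0571000.

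More plasma membrane water channels were called higher at 24 h than lower. The plasma membrane aquaporins counted 6 higher and 1 lower of 10 tested, with a median of 1.12, and their median ratio was -0.89 early and 0.26 at 24 h. OsPIP2;5 (Os07g0448400) had ratios of -1.49, -1.15 and -1.40 early and 2.1, 2.13 and 2.05 late, a difference of 3.44 ± 0.12 (adjusted p = 0.000184), the smallest adjusted p of the named genes. OsPIP1;3 (Os02g0823100) differed by 2.32 ± 0.12 (adjusted p = 0.000282), OsPIP2;3 (Os04g0521100) by 2.09 ± 0.15 (adjusted p = 0.000312) and OsPIP2;4 (Os07g0448100) by 1.83 ± 0.11 (adjusted p = 0.00029). OsPIP2;5 turned from down to up, OsPIP2;3 ended within 2-fold of control, and the other two were called at 24 h only. The tonoplast aquaporins had 1 called gene of 7 tested, OsTIP1;2 (Os01g0975900), which differed by 2.02 ± 0.17 (adjusted p = 0.000441); without short replicate 2 or long replicate 2 there was also 1 lower gene.

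The silicon channel OsNIP2;1 (Os02g0745100) also turned, from -1.37, -1.36 and -1.79 early to 1.16, 2.02 and 2.31 late, a difference of 3.34 ± 0.31 (adjusted p = 0.000564). Its control signal changed by 0.33. In the same NIP and SIP list OsNIP1;3 (Os05g0205000) lost its early induction, with means of 1.35 after short-term and -0.49 after long-term exposure, and OsNIP3;1 (Os10g0513200) differed by 1.39.

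Zinc-iron permeases and Nramp transporters, which move zinc, iron, manganese and other divalent metals, counted 5 higher and 0 lower of 24 tested, with a median of 0.40. The zinc transporter Os08g0207500 had ratios of -1.53, -1.39 and -1.22 early and 0.46, 0.94 and 0.94 late, a difference of 2.16 ± 0.17 (adjusted p = 0.000369). ZIP1 (Os05g0472700) differed by 2.1 ± 0.17 (adjusted p = 0.000427) and OsNramp1 (Os07g0257200) by 1.5 ± 0.21 (adjusted p = 0.0021). For Os07g0232800, also of the ZIP family, the early ratios spread from -0.14 to 1.59. Its call was lost by the methods' t-test, and without short replicate 2 or any 1 of the long replicates. A copper-translocating P-type ATPase (Os04g0556000) rose by 2.17 ± 0.23 (adjusted p = 0.000812). Most called P-type ATPases were lower (2 higher and 7 lower of 37 tested), among them a plasma membrane calcium pump (Os03g0203700) with means of 2.39 after short-term and -0.12 after long-term exposure. An HKT-type sodium transporter (Os06g0701700) differed by 2.23 ± 0.39 (adjusted p = 0.0043) and an ammonium transporter (Os02g0620600) by 2.29 ± 0.26 (adjusted p = 0.000981).

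ABC transporters counted 12 higher and 21 lower of 88 tested, a called share of 37.5%. Early, 29 were upregulated and 10 downregulated, and at 24 h 12 and 1. The 3 lowest named ABC genes included 2 described as transporters of the pleiotropic drug resistance (PDR) type, a class that moves a wide range of compounds across membranes. Os01g0609200, described only as ABC transporter related, and the PDR3-like Os01g0609300 had means of 3.26 after short-term and -0.20 after long-term exposure and of 4.13 after short-term and 0.96 after long-term exposure. The PDR5-like Os02g0208300 had ratios of 3.14, 1.62 and 2.14 early and -0.92, -0.46 and -0.52 late, a difference of -2.93 ± 0.38 (adjusted p = 0.00149). Against them Os05g0384600 was called at 24 h only and differed by 2.61 ± 0.41 (adjusted p = 0.0031). MATE-type flippases, which export organic acids and toxins, counted 5 higher and 12 lower of 38 tested; Os03g0188100 fell by 3.06 and Os03g0858800 differed by 2.06.

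Sugar carriers led the lower major facilitators. Of the major facilitators, 11 higher and 14 lower of 105 tested, the hexose transporter Os03g0218400 had ratios of 4.42, 3.38 and 4.13 early and 1.49, 1.48 and 1.43 late, a difference of -2.51 ± 0.26 (adjusted p = 0.000744). The monosaccharide transporters Os07g0559700 and Os01g0567600 differed by -1.94 and -1.94, whereas the sugar transporter Os04g0452600 rose by 1.90. The number of higher major facilitators was 7 without long replicate 3. Mitochondrial carriers counted 1 higher and 9 lower of 55 tested, led by a phosphate carrier (Os09g0454600) with means of 3.71 after short-term and 1.20 after long-term exposure. Among drug/metabolite transporters, 17 higher and 14 lower of 89 tested, the triose phosphate translocator Os01g0172100 differed by -3.01 ± 0.27 (adjusted p = 0.000541) and the glucose-6-phosphate translocators Os07g0523600 and Os07g0523400 by -2.39 and -1.90.

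The POT family of peptide and nitrate transporters counted 13 higher and 8 lower of 51 tested, with a median of 0.35. The nitrate transporter Os10g0554200 had ratios of -0.73, -0.85 and -1.11 early and 0.96, 1.71 and 1.54 late, a difference of 2.3 ± 0.22 (adjusted p = 0.000603). Amino acid permeases counted 7 higher and 10 lower of 62 tested. Both named AUX1-like genes, of the family that imports auxin, were higher: Os05g0447200 by 1.87 ± 0.16 (adjusted p = 0.000478) and Os03g0244600 by 1.51 ± 0.14 (adjusted p = 0.000544). The amino acid permease Os01g0607200 was called at 24 h only, as downregulated, with a late mean of -2.13.

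Enzymes of pectin, which glues plant cells together, counted 16 higher and 2 lower of 47 tested, with a median of 0.53. Early, 13 were downregulated and 3 upregulated; at 24 h, 7 and 10. Polygalacturonase PG2 (Os05g0578600), which cuts pectin, had ratios of -3.32, -2.34 and -1.92 early and 0.69, 0.95 and 0.49 late, a difference of 3.23 ± 0.35 (adjusted p = 0.00088). The pectate lyase Os04g0137100 differed by 1.91 ± 0.11 (adjusted p = 0.000282). For the pectinesterase Os01g0880300 the difference of 2.24 was made of 0.82 in the Hg channel and -1.42 in the control channel. With no filter on low signals, 5 pectin genes in place of 2 were lower.

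The glycoside hydrolases 9, the endoglucanase family, counted 5 higher and 1 lower of 17 tested (2 lower without short replicate 1), and the cellulase Os01g0220100 had ratios of -0.27, -0.42 and -1.01 early and 2.25, 2.95 and 3.28 late, a difference of 3.39 ± 0.31 (adjusted p = 0.000559). Xyloglucan endotransglycosylases/hydrolases (XTHs), which cut and rejoin the polymer that ties cellulose fibres, were called in 57.1% of tested members and in both directions, 7 higher and 5 lower of 21 tested. Os08g0237800 was repressed at 24 h only, with means of -0.83 after short-term and -3.24 after long-term exposure, while Os09g0395600 and Os04g0631200 rose from below control by 2.23 and 1.62. Expansins counted 3 higher and 5 lower of 37 tested; expansin S2 (Os04g0228400) differed by -2.03 ± 0.19 (adjusted p = 0.000568) and OsEXPA19 (Os03g0428700) by -1.98, both repressed at 24 h only. In the latter the control channel (1.13) moved more than the Hg channel (-0.84). Cellulose synthase-9 (Os10g0578200), one of the enzymes that spin cellulose, had ratios of -0.36, -0.37 and -0.32 early and -2.16, -2.11 and -2.60 late, a difference of -1.94 ± 0.15 (adjusted p = 0.000372).

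The glycoside hydrolases 18, listed as yieldins and including chitinases, had 3 genes that were lower and 0 higher among 13 tested, and 1 was higher without long replicate 1 or long replicate 2. The class III chitinase homologue Os06g0356800 had means of 2.51 after short-term and 0.42 after long-term exposure. Glycoside hydrolases 17, the beta-1,3-glucanase family, counted 8 higher and 4 lower of 51 tested, and 5 higher and 2 lower without short replicate 3. Without long replicate 3 the counts were again 5 and 2, and without short replicate 1 or long replicate 1 there were 2 lower. Os02g0532900 of this family differed by -2.97 ± 0.32 (adjusted p = 0.000879), with a control change of 1.06.

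**Figure D5:**
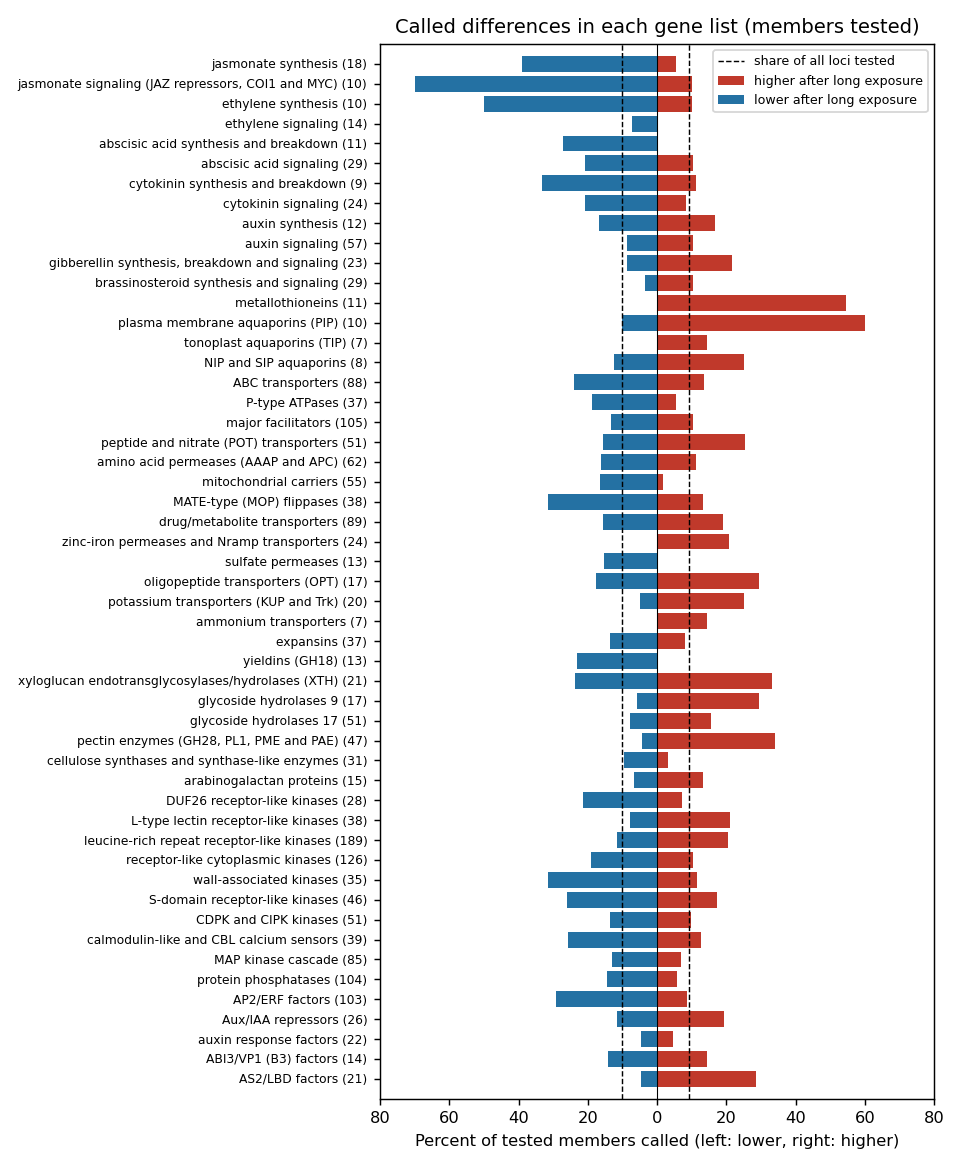
Bars give, for each of the 52 gene lists, the percentage of tested members called lower (blue, to the left) or higher (red, to the right) after long-term exposure, with the number tested in parentheses; dashed lines mark the shares of all tested loci, 10.1% and 9.20%. Jasmonate and ethylene synthesis, jasmonate signaling and AP2/ERF factors extend to the left, and metallothioneins, plasma membrane aquaporins and pectin enzymes to the right. Cytokinin synthesis and breakdown, MATE-type flippases and wall-associated kinases reach further left than AP2/ERF factors, and XTHs nearly as far right as pectin enzymes.

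Receptor-like kinases (RLKs) sit at the cell surface or act just beneath it. Leucine-rich repeat RLKs counted 39 higher and 22 lower of 189 tested, with a median of 0.15; Os05g0257100 had ratios of 3.13, 2.75 and 3.20 early and -0.58, 0.19 and 0.10 late, a difference of -3.12 ± 0.24 (adjusted p = 0.000355). Wall-associated kinases, which sense pectin, counted 4 higher and 11 lower of 35 tested, and Os05g0550800 had means of 2.45 after short-term and -0.65 after long-term exposure with a difference of -3.11 ± 0.18 (adjusted p = 0.000282). S-domain RLKs counted 8 higher and 12 lower of 46 tested; among those well above background on all arrays, Os04g0631800 differed by -2.48 ± 0.15 (adjusted p = 0.00029). Receptor-like cytoplasmic kinases counted 13 higher and 24 lower of 126 tested; beside Os08g0374600, Os03g0179400 turned from -0.90, -1.26 and -1.88 to 0.54, 1.48 and 1.74. After normexp and loess the higher counts were 20 leucine-rich repeat RLKs, 1 wall-associated kinase, 2 S-domain RLKs and 8 cytoplasmic kinases, and the lower counts 6 wall-associated and 6 S-domain kinases.

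Downstream of the receptors, the MAP kinase cascade, a relay of 3 kinase tiers, counted 6 higher and 11 lower of 85 tested. The MAPKKK genes MAPKKK62 (Os01g0699600) and MAPKKK70 (Os01g0699500) lost early induction. MAPKKK70 had ratios of 3.21, 3.27 and 3.38 early and -0.71, 0.23 and -0.32 late, a difference of -3.55 ± 0.23 (adjusted p = 0.000299), and MAPKKK62 differed by -3.67 ± 0.46 (adjusted p = 0.00137). MAPKKK54 (Os03g0401100) moved the other way by 2.25 ± 0.17 (adjusted p = 0.000368). Calcium sensors of the calmodulin-like and CBL type counted 5 higher and 10 lower of 39 tested. OsCML31 (Os01g0955100) was induced at both exposures and less at 24 h (3.82 after short-term and 1.94 after long-term exposure), and OsCML16 (Os01g0135700) differed by -2.21 ± 0.35 (adjusted p = 0.00317). The calcium-dependent kinases OsCPK4 (Os02g0126400) and OsCPK20 (Os07g0568600) fell by 1.93 and 1.72, while OsCIPK25 (Os06g0543400) and OsCIPK04 (Os12g0603700), which act with CBL sensors, differed by 1.79 and 1.76. Protein phosphatases counted 6 higher and 15 lower of 104 tested, with 3 higher without short replicate 3 and 2 higher without long replicate 2; OsPP108 (Os09g0325700) differed by -2.48 ± 0.29 (adjusted p = 0.00112).

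Among transcription factors the AP2/ERF family, which includes the factors that act below ethylene, counted 9 higher and 30 lower of 103 tested. Early, 36 were upregulated and 3 downregulated, and at 24 h 14 and 6. AP2/ERF-155 (Os10g0562900) had ratios of 3.47, 3.13 and 3.48 early and -0.46, 0.39 and 0.31 late, a difference of -3.28 ± 0.25 (adjusted p = 0.000351). AP2/ERF-29 (Os02g0654700) had 4.33, 2.84 and 3.66 early and 0.21, 0.74 and 0.67 late, a difference of -3.07 ± 0.37 (adjusted p = 0.00125). The late ratios of AP2/ERF-58 (Os03g0860100) spread from -0.44 to 1.92, with a difference of -3.23 ± 0.61 (adjusted p = 0.00597). Of the AS2/LBD factors, a plant family that marks organ boundaries, 6 higher and 1 lower of 21 tested, AS2-29 (Os07g0589000) rose by 2.21 ± 0.20 (adjusted p = 0.000551). Without short replicate 1 or long replicate 1 this list had 2 lower genes.

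Gibberellin synthesis, breakdown and signaling counted 5 higher and 2 lower of 23 tested. The gibberellin 2-oxidases, which inactivate the hormone, went both ways: GA2ox9 (Os02g0630300) differed by -2.64 ± 0.55 (adjusted p = 0.00872) and GA2ox7 (Os05g0560900) by 1.31 ± 0.13 (adjusted p = 0.000616). In GA2ox9 the Hg channel changed by -4.97 and the control channel by -2.32, and in GA2ox7 they changed by -0.82 and -2.13. GA20ox1 (Os03g0856700), of gibberellin synthesis, differed by 1.21, with -0.98 in the control channel. For GA2ox3 (Os01g0757200), at -1.39 ± 0.39 (adjusted p = 0.0261), the call was lost without any 1 of the arrays except short replicate 2. It was also lost by the methods' t-test. Abscisic acid synthesis and breakdown counted 0 higher and 3 lower of 11 tested, cytokinin synthesis and breakdown 1 higher and 3 lower of 9 tested and auxin synthesis 2 higher and 2 lower of 12 tested. The anthranilate synthase subunit OsASB2 (Os03g0718000), of the tryptophan branch from which auxin is made, differed by 1.65 ± 0.16 (adjusted p = 0.000678).

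Among transporters not yet described, potassium transporters counted 5 higher and 1 lower of 20 tested, oligopeptide transporters 5 higher and 3 lower of 17 tested, sulfate permeases 0 higher and 2 lower of 13 tested and ammonium transporters 1 higher and 0 lower of 7 tested. The potassium transporter Os03g0575200 differed by 1.74 ± 0.16 (adjusted p = 0.00053) and was called at 24 h only. The oligopeptide transporter Os04g0542200 had means of -1.56 after short-term and 0.04 after long-term exposure. Cellulose synthases and their relatives counted 1 higher and 3 lower of 31 tested and arabinogalactan proteins, which coat the cell surface, 2 higher and 1 lower of 15 tested; the fasciclin-domain gene Os09g0476800 differed by 1.84 ± 0.13 (adjusted p = 0.000326).

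DUF26 receptor-like kinases counted 2 higher and 6 lower of 28 tested, and 16 of the 28 tested were called up early and 13 at 24 h. L-type lectin RLKs counted 8 higher and 3 lower of 38 tested; Os02g0712700 lost an early induction that was tight between arrays (1.37, 1.37 and 1.43), with a difference of -1.41 ± 0.11 (adjusted p = 0.000351). The CDPK and CIPK kinases counted 5 higher and 7 lower of 51 tested. Aux/IAA repressors counted 5 higher and 3 lower of 26 tested, auxin response factors 1 higher and 1 lower of 22 tested and B3 factors of the ABI3/VP1 type 2 higher and 2 lower of 14 tested. OsARF6 (Os02g0164900) lost its early induction, with a difference of -1.26 ± 0.11 (adjusted p = 0.000543), against the rise of OsARF15.

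In 10 lists the median and the balance of calls differed in sign, most of all in the XTHs (median -0.60), the Aux/IAA repressors (-0.44) and the ammonium transporters (-0.47), and to a small extent in ethylene signaling (0.03), cytokinin signaling (0.07), major facilitators (0.07), drug/metabolite (-0.14) and oligopeptide (-0.13) transporters and cellulose synthases (0.02). Sulfate permeases, with 2 lower genes, had a median of 0.0072. After normexp and loess, the counts of many lists moved. Among others, the higher counts were 6 for ABC transporters, 4 for major facilitators, 4 for XTHs, 3 for L-type lectin RLKs and 3 for the MAP kinase cascade. The lower counts included 5 for POT transporters and 7 for the MAP kinase cascade. With only loci well above background on all arrays, 4 jasmonate synthesis, 3 ethylene synthesis, 3 wall-associated kinase and 15 cytoplasmic kinase genes were lower. The higher counts of metallothioneins, plasma membrane aquaporins and pectin enzymes and the lower counts of jasmonate signaling and AP2/ERF genes stayed within 1.5 times in every alternative run.

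Counts of the smaller lists moved with single arrays. Without short replicate 1 the counts were 4 higher DUF26 kinases, 2 lower arabinogalactan proteins, 1 lower ammonium transporter, 1 lower sulfate permease, 1 lower gibberellin gene and 0 higher B3 factors. Without short replicate 2 there were 5 higher auxin response factors, 3 higher gibberellin genes, 5 lower genes of cytokinin synthesis and breakdown, 1 lower of auxin synthesis, 2 higher of the cellulose synthases, and 1 higher and 1 lower sulfate permease. Without short replicate 3 there were 1 lower Aux/IAA repressor, 2 higher auxin response factors, 3 higher and 1 lower gibberellin genes, 2 higher cytokinin synthesis and breakdown genes, 2 higher cellulose synthases, 1 higher DUF26 kinase, 4 higher B3 factors and 0 lower potassium transporters. Without long replicate 1 there were 9 lower Aux/IAA repressors, 3 higher auxin response factors, 3 higher and 1 lower gibberellin genes, 2 higher cellulose synthases, 1 lower ammonium transporter and 1 lower sulfate permease. Without long replicate 2 there were 3 higher cellulose synthases, without long replicate 3 there were 2, and without either there were 2 higher cytokinin synthesis and breakdown genes, 1 lower gibberellin gene and 1 lower Aux/IAA repressor. Without long replicate 3 there were also 2 higher auxin response factors and 0 higher DUF26 kinases. The B3 list had 1 lower factor without any 1 of short replicates 1 and 2 and long replicates 2 and 3.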

How the data were processed

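Hg-treated (Cy5) and control (Cy3) root RNA was hybridised on 6 two-colour Agilent rice arrays, 3 per exposure. Per the file headers, intensity was extracted by the authors with Feature Extraction 10.7.1.1, which subtracts background and normalises the dyes. The deposited files also hold a log10 ratio per spot, and a deposited series table of log2 ratios equals the log2 of the processed signals to within 0.01 for 100% of values; both served as alternatives. A log2 Cy5/Cy3 ratio was formed per spot. Outlier and control spots were left out, as were probes under a signal of 100 in both channels on all arrays. The brightest probe stood for a locus. The contrast long minus short was fitted with limma 3.58.1 in R 4.3.3 over 21810 loci, and called at a Benjamini-Hochberg adjusted p under 0.05 and at least 2-fold. Precision is set by having 3 arrays a group. The fit was tested on simulated data of 21030 loci with 100 changed by each size: 82 were recovered at a log2 size of 1.5 and 96 at 2.5, with 0 unchanged loci called. The simulated errors were independent, followed the variances estimated by the fit itself and held no slide or dye effect. The simulation therefore checks the code and cannot give the rate of false calls in the real data.

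Named genes were taken from called loci well above background in both channels on all arrays, so that a larger difference of a dimmer locus is not named. They were the 12 highest and 12 lowest differences of described loci, up to 4 members per list with the largest differences, and the 8 largest differences among described loci called in opposite directions. The comparison, members and lists were chosen with earlier results of these data known, and most descriptions came from a table of genes that the study chose on these arrays. The 52 lists came from its other family tables. Gene names came from the study's tables, since 0 loci matched the RefSeq table at hand. The number of per-sample columns left unmapped was 0. The alternatives tried are given in the closing section. The alternative called "the methods' t-test" is an ordinary t-test on the same values. For the difference between the exposures it assumes equal variances. For the calls of each exposure it tests the ratios against 0, with the variance of that exposure's arrays alone. The study's methods name the test against 0 and give none between exposures.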

Additional observations from a re-analysis of the deposited data

Results flagged for a closer look

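The contrast between exposures is itself a test of whether the Hg response differed, and it was passed by 2007 loci with a higher and 2210 with a lower ratio after 24 h. Of the described loci well above background on all arrays that were called in opposite directions at the exposures, the 8 with the largest differences are given here for that reason. Turning from down to up, the PR-1a gene Os02g0786900 differed by 4.21, the LRR kinase Os02g0228300 by 3.95, the MATE-type transporter Os03g0216700 by 3.86, endoglucanase 1 (Os02g0123700) by 3.80 and the beta-expansin Os03g0102700 by 3.64. Turning from up to down, the acid phosphatase Os07g0681200 differed by -5.19, the aspartic peptidase Os01g0937000 by -4.89 and arginine decarboxylase (Os04g0107600) by -4.58. The late Hg signals of the phosphatase and the peptidase were low, as given above. These are log2 differences with an adjusted p under 0.05 by limma. The slides differed between the exposures, and their part was not tested.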

How the results depend on the processing

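Higher and lower loci numbered 1828 to 2100 and 2049 to 2249 when 1 array was left out, and loci called in opposite directions 152 to 187. With normexp and loess, run on the median spot signals because the files used here hold no mean ones, 1140 loci were higher, 442 and 532 were downregulated early and late, and 36 turned. Limited to loci well above background on all arrays, 1406 loci were higher and 1601 lower. In that run 1618 and 1110 loci were up- and downregulated early, 1195 were upregulated late and 76 turned. The methods' t-test judges each exposure by its own arrays alone. By that test, 1029 and 565 were up- and downregulated early, 912 and 811 late, and 17 turned. With no fold threshold, 5702 were higher and 5216 lower, 6034 and 8922 up- and downregulated early, 6241 and 7702 late, and 2102 turned. The other alternatives (log10 column, authors' table, median centring, no low-signal filter, mean of probes, outliers kept, variance trend) moved none of these totals by 1.5 times. The replicate number as a block gave 1928 higher and 2150 lower loci. Deviations of same-numbered arrays from their group means correlated at -0.24, 0.02 and -0.18. With 3 arrays per exposure, such values cannot decide whether the numbers pair the samples. Slide as a random block gave 1976 and 2124. As no slide held both exposures, that run cannot separate a slide effect from the exposure. Of 190 named genes with a called difference, 25 lost the call under at least 1 alternative and 0 changed sign, with most losses under normexp and loess (16). The leaf gene Os03g0592500 went from 0.36 to -0.015 with the mean of its probes. Loci near background in 1 channel are limited by signal. For 378 called loci a channel was well above background on none of the arrays of an exposure. Only 2926 of the 4217 called loci were well above background in both channels on all arrays.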

Other observations

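For 1012 called loci more than 1 probe was measured. In 997 of these all probes had the same sign of difference, in 822 all were called the same way, and in 0 was a probe called the other way.

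Some called differences lay mostly in the control channel. Beside those already given, the beta-1,3-glucanase Os07g0538000 differed by 1.68, with 0.64 in the Hg channel and -1.04 in the control channel. Its call was lost after normexp and loess. The S-domain kinase Os04g0655000 differed by 1.55, with -0.39 in the Hg channel and -1.95 in the control channel. The control channel moved more than the Hg channel for 324 higher and 305 lower loci.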
